A study of Mus musculus with 18 samples.

Results

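Nnt and 8 further mitochondrial enzymes that make NADPH or remove superoxide and peroxide were followed in mouse bone marrow-derived macrophages (BMDM), macrophages grown from marrow cells with the growth factor M-CSF. The 9 members, Nnt, Idh2, Me3, Glud1, Txnrd2, Txn2, Prdx3, Prdx5 and Sod2, were found by symbol among the 18668 gene symbols of the deposited table. Nnt was selected on its difference between the mouse lines, so that difference is described here and not tested. The others were taken for their place in mitochondrial NADPH and peroxide metabolism, with earlier results of these data known. The gene lists below were also chosen with those results known. Counts of called genes among members and lists, and tests of their ratios, are thus not independent of these data. Of the 9 members, 8 passed the filter on low values and were tested among 12838 genes, and Me3 did not pass.

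Marrow was taken from Apoe-/- mice and from mice lacking both Apoe and Treml4 (Apoe-/-/Treml4-/-, DKO), all labelled as C57BL6 with no substrain named. By genotype every group thus lacked Apoe. The double mutants were obtained by crossing Apoe-/- with Treml4-/- mice and breeding the offspring among themselves. Both deletions were carried by the whole animal, and the ages of the donor mice are not given in the sources used here. After 7 days of differentiation, cells of each genotype received the vehicle PBS (untreated) or oxidized low-density lipoprotein (oxLDL), a lipid particle that macrophages engulf in atherosclerotic plaques, at 10 or 60 µg/ml (oxLDL 10 and oxLDL 60). The design text gives 16 hours of exposure, the study's methods give a longer one, and a treatment label mentions LPS, which was not resolved. Each of the 6 groups had 3 biological replicates.

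Nicotinamide nucleotide transhydrogenase, the product of Nnt, sits in the inner mitochondrial membrane and uses the proton gradient to make NADPH from NADH. Idh2, the mitochondrial NADP-dependent isocitrate dehydrogenase, and Me3, the mitochondrial NADP-dependent malic enzyme, also make NADPH in the matrix, while Glud1, glutamate dehydrogenase, can use either cofactor. NADPH feeds thioredoxin reductase (Txnrd2), which reduces mitochondrial thioredoxin (Txn2), which in turn serves the peroxidases Prdx3 and Prdx5, and Sod2 turns superoxide into the hydrogen peroxide that these remove. As background, mice of the C57BL/6J substrain carry a deletion of several exons in Nnt, and other C57BL/6 substrains do not. The reference genome comes from C57BL/6J, values here are summed over a whole gene, and coverage by exon was not analysed here.

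Levels are in RPKM, the reads of a gene scaled to its length and to the reads of the library. Depth, recovered from the steps between low values, was 39.7 M to 54.2 M reads per library. The removed gene Treml4 stood between 1.86 and 8.39 RPKM in the 9 Apoe-/- libraries and at 0 in DKO libraries except untreated replicate 2, at 0.0116 RPKM. RNA of Apoe, removed in every group by genotype, was still listed in all 18 libraries. It stood between 0.937 and 4.13 RPKM in Apoe-/- and between 0.349 and 1.39 RPKM in DKO libraries. Xist, the RNA of the inactive X chromosome, was above 1 RPKM in Apoe-/- replicate 2 and DKO replicate 3 at every treatment, so each genotype held 1 replicate that differed from the others in sex. Of 8 macrophage markers all were tested, with a summed level between 5560 and 11764 RPKM in untreated and oxLDL 60 cells. Their sum was 8932 to 11764 RPKM in untreated Apoe-/- cells and 6529 to 8483 RPKM with oxLDL 60, and 8383 to 10951 RPKM and 5560 to 7152 RPKM in DKO cells. Most of this sum was Lyz2, and the markers did not all fall. With oxLDL 60 Lyz2, Cd14 and Fcgr1 were called lower in both genotypes, and Adgre1 in Apoe-/- cells alone. Mertk was called higher in both genotypes, and the mean of Cd68 rose in both without a call. Csf1r and Itgam were not called. Summed T cell markers stayed under 0.41 RPKM, B cell markers under 0.0721 RPKM and dendritic cell markers under 0.306 RPKM. Neutrophil markers summed to 26.1 to 43.1 RPKM in Apoe-/- and 29.3 to 72.8 RPKM in DKO libraries, and mesenchymal markers to 0.519 to 13.7 and 0.865 to 5.20 RPKM. The part of these shifts in the results below was not tested, and in bulk RNA fewer cells of a type and less RNA per cell cannot be told apart.

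Nnt was detected in all 18 libraries, behind 907 to 2015 estimated reads, and DKO cells held more of it at every treatment. Untreated Apoe-/- cells had 5.99, 6.67 and 7.17 RPKM in replicates 1 to 3, against 11.5, 11.8 and 11.9 RPKM in untreated DKO cells. With oxLDL 10 the values were 6.82, 6.74 and 6.58 RPKM in Apoe-/- and 11.9, 12.4 and 11.3 RPKM in DKO cells. With oxLDL 60 they were 6.15, 6.47 and 6.47 RPKM in Apoe-/- and 11.3, 11.4 and 10.3 RPKM in DKO cells. The genotypes did not overlap at any treatment.

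The mean Nnt level was 6.61 ± 0.592 RPKM in untreated Apoe-/- cells and 11.7 ± 0.204 RPKM in untreated DKO cells (SD, n = 3), a ratio of 1.77. The ratio was also 1.77 with oxLDL 10 and 1.72 with oxLDL 60, and the lowest DKO library lay 1.60, 1.66 and 1.59 times above the highest Apoe-/- library without oxLDL, with oxLDL 10 and with oxLDL 60. These are differences of 0.82, 0.82 and 0.78 on the log2(RPKM + 0.1) scale, each with an SE of 0.07 from limma.

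**Figure D1:**
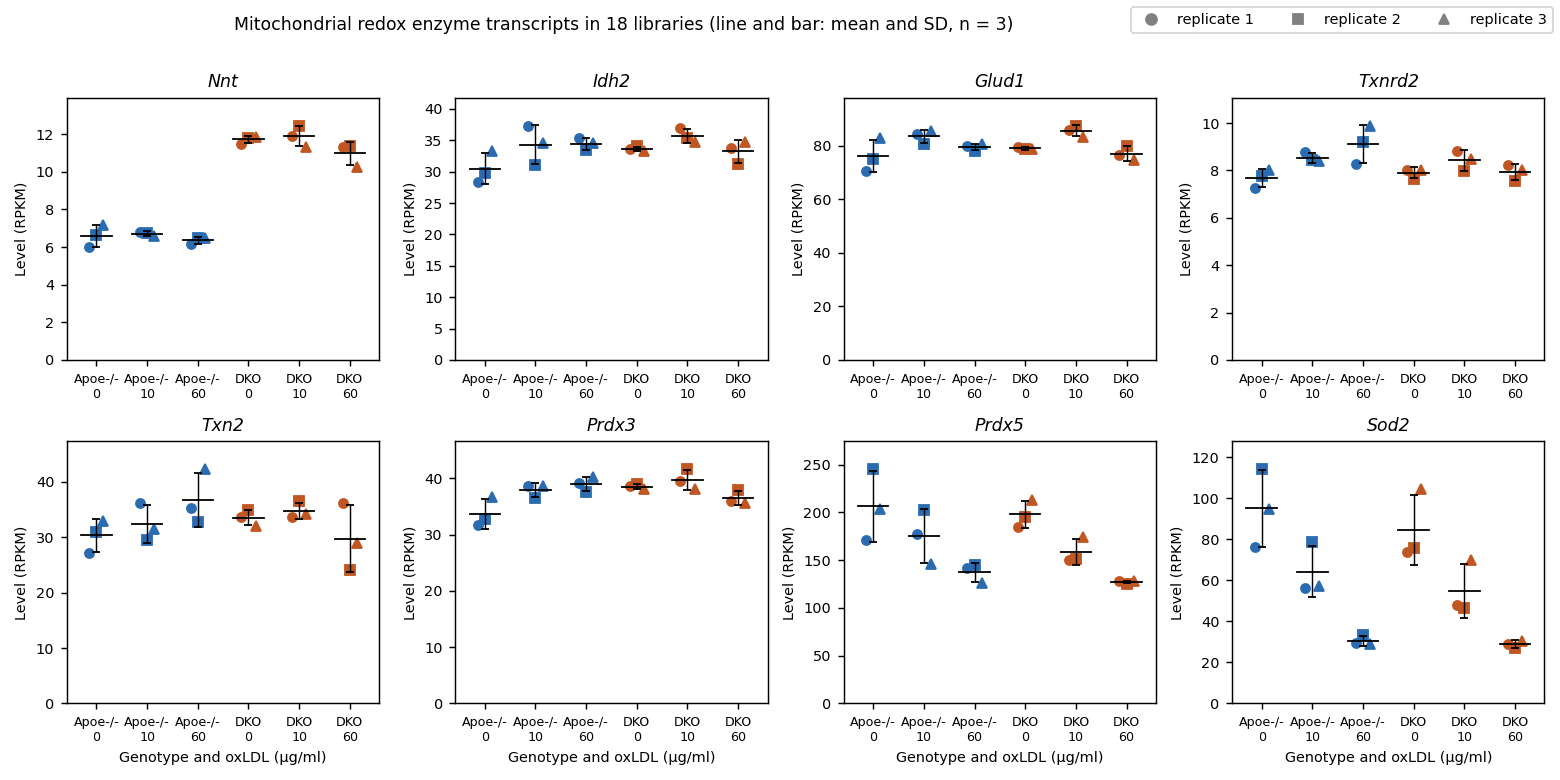
Level of each tested member in RPKM (vertical axis, from 0) in the 6 groups of genotype and oxLDL in µg/ml (horizontal axis), with 1 point for each library, shaped by replicate number, and lines and bars for the mean and SD of 3 libraries. Nnt separates the genotypes at every treatment, from at most 7.17 RPKM in Apoe-/- to at least 10.3 RPKM in DKO libraries, while Sod2 and Prdx5 fall with oxLDL 60 in both genotypes.

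No change of Nnt with oxLDL was called. Its change was 0.03 with oxLDL 10 (SE 0.07, limma adjusted p = 0.868) and -0.05 with oxLDL 60 (adjusted p = 0.627) in Apoe-/- cells, on the log2 scale. In DKO cells the change was 0.02 (adjusted p = 0.967) and -0.10 (adjusted p = 0.326). The 95% interval of the oxLDL 60 change ran from -0.19 to 0.09 in Apoe-/- and from -0.24 to 0.04 in DKO cells. In DKO cells the 3 oxLDL 60 libraries all lay below the 3 untreated ones, and in Apoe-/- cells the groups overlapped. The share of all genes that separate in this way is not given here. The median change of all genes with oxLDL 60 in DKO cells was -0.06. Over 15 alternatives the Nnt change there lay between -0.12 and -0.03. The difference between the genotypes in the oxLDL 60 change of Nnt was -0.05 (SE 0.09, adjusted p = 0.884).

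In the reference Nnt spans chr13:119335527-119409257 (GRCm38.p6, the assembly of the mm10 build named in the submitters' notes), with 4 protein-coding transcript models of 14 to 17 exons. Its nearest protein-coding genes on either side were examined in the same way. Of these, Parp8, Emb, Mrps30, Paip1, 4833420G17Rik, Tmem267 and Hmgcs1 were tested. Paip1, which lies 19074 bases away and encodes a translation factor that binds poly(A)-binding protein, differed between genotypes by 0.09 untreated, -0.06 with oxLDL 10 and -0.00 with oxLDL 60 (log2).

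Tmem267, a predicted membrane protein gene 78829 bases from Nnt, was also higher in DKO cells. Untreated Apoe-/- cells had 1.81, 1.84 and 1.73 RPKM and untreated DKO cells 5.53, 4.81 and 3.38 RPKM. With oxLDL 10 the values were 2.38, 1.94 and 2.03 RPKM against 4.86, 4.33 and 2.82 RPKM. With oxLDL 60 they were 2.53, 2.49 and 2.26 RPKM against 4.95, 4.47 and 2.61 RPKM. The genotypes did not overlap, and DKO replicate 3, the replicate with Xist, was the lowest of the DKO cells at each treatment.

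The Tmem267 difference was 1.28 untreated (SE 0.22, limma adjusted p = 0.0188), 0.86 with oxLDL 10 (adjusted p = 0.283) and 0.65 with oxLDL 60 (adjusted p = 0.503) on the log2 scale. Calls required an adjusted p below 0.05 together with a fold change of at least 1.4, and only the untreated difference was called. Between the genotypes 0.21% of all genes tested were called untreated, 0.0857% with oxLDL 10 and 0.125% with oxLDL 60. The untreated call was lost without untreated Apoe-/- replicate 1 (adjusted p = 0.0755) or 2 (adjusted p = 0.0644), without untreated DKO replicate 1 or 2, and without the filter on low values (adjusted p = 0.0535). Without the libraries with Xist the differences were 1.49, 1.03 and 0.95, all called (adjusted p = 2.6e-05, 0.000939 and 0.00241). None of the other 6 tested neighbours was called at any treatment.

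**Figure D2:**
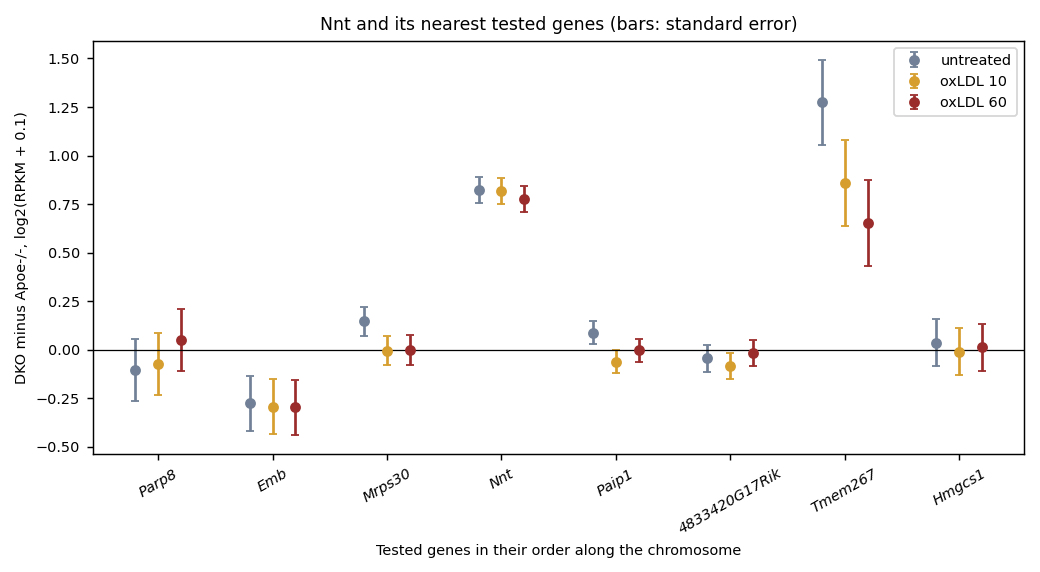
Difference of DKO minus Apoe-/- cells on the log2(RPKM + 0.1) scale (vertical axis) for Nnt and its tested neighbours in their order along the chromosome (horizontal axis, not to scale), with points for each treatment and bars for the SE. Nnt lies at 0.82, 0.82 and 0.78 and Tmem267 at 1.28, 0.86 and 0.65, while Paip1, between them, lies at 0.09, -0.06 and -0.00.

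The 5 tested genes most like Nnt over the 18 libraries, by Pearson's r of log2 levels, were G530011O06Rik (r = 0.947), Efcab7 (0.941), Erdr1 (0.937), Zkscan3 (0.909) and Zfp111 (0.899). These 18 points share the genotype difference by which Nnt was chosen, so the correlations are descriptions. Erdr1 stood between 0.662 and 1.31 RPKM in Apoe-/- and between 2.88 and 6.47 RPKM in DKO libraries. With the mean of each genotype removed, the 5 highest were Picalm (r = 0.908), Sri (0.908), Ppp2r5c (0.907), Hltf (0.907) and Coa5 (0.906), over the same 18 libraries. Among the members Glud1 then followed Nnt most closely (r = 0.68) and Txnrd2 least (r = 0.13).

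Apart from Nnt, none of the 7 tested members was called between the genotypes at any treatment. In limma 1, 0 and 2 of the 7 had an unadjusted p under 0.05 untreated, with oxLDL 10 and with oxLDL 60, beside 2225, 1252 and 1011 of all genes. Prdx3 came nearest when untreated, with 31.7, 32.7 and 36.7 RPKM in Apoe-/- and 38.6, 39.0 and 38.1 RPKM in DKO cells. These groups did not overlap, with a log2 difference of 0.20 (SE 0.06, adjusted p = 0.127). Rescaling each library by its median ratio to the others lowered it to 0.10 and moved the median of all genes by -0.10. Idh2 also did not overlap when untreated, at 28.4, 29.8 and 33.3 RPKM against 33.5, 34.0 and 33.3 RPKM, with the highest Apoe-/- and lowest DKO library almost equal. The Idh2 difference was 0.14 (SE 0.07, adjusted p = 0.299), beside a median of 0.09 over all genes in untreated cells. The share of all genes whose genotypes did not overlap is not given here. Without that share, how far non-overlap sets apart Prdx3, Idh2, Tmem267 (above) or Txnrd2 (below) cannot be said.

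With oxLDL 60 the means of Txnrd2 and Txn2 lay lower in DKO than in Apoe-/- cells, and neither difference passed the test. Txnrd2 had 8.27, 9.22 and 9.87 RPKM in Apoe-/- and 8.22, 7.54 and 8.02 RPKM in DKO cells, a difference of -0.20 (SE 0.07, adjusted p = 0.518) without overlap. Txn2 had 35.3, 32.7 and 42.3 RPKM against 36.2, 24.2 and 29.0 RPKM, a difference of -0.31 (SE 0.12, adjusted p = 0.573) with overlap. For Prdx3 the difference with oxLDL 60 was -0.10 (limma adjusted p = 0.697), also with overlap. The median of all genes there was -0.02. In untreated Apoe-/- replicate 1 all 8 tested members stood at the lowest value of their group, and the sum of RPKM over all genes was 345768, against 375374 to 409034 in the other 17 libraries.

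Sod2 and Prdx5 were the 2 members that were called lower with oxLDL 60 in both genotypes. Their sequences upstream of the gene start, with that of Prdx3, the peroxidase that was not called lower, are printed to show their GC boxes, the short motif of housekeeping promoters to which Sp1 binds. The 250 bases before each start are given 5′ to 3′ on the gene's strand (RefSeq, GRCm38.p6), with each GC box (GGGCGG, or CCGCCC on the other strand) in capitals.
Sod2, chr17:13007589-13007838, plus strand: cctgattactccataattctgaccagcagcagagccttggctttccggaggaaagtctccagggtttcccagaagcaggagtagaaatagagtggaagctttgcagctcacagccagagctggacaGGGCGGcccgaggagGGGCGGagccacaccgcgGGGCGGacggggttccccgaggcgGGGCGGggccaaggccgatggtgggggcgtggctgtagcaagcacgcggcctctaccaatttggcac
Prdx5, chr19:6910107-6910356, minus strand: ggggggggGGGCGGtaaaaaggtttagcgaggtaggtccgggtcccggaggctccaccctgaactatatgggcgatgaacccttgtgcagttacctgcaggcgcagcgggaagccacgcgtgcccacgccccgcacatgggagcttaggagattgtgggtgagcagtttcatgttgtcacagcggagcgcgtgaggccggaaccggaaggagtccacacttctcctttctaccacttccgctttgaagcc
Prdx3, chr19:60874539-60874788, minus strand: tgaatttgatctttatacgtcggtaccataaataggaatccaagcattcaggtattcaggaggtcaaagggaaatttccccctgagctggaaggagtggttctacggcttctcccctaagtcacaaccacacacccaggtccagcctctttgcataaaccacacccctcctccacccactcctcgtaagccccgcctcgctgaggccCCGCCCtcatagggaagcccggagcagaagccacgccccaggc

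In the 300 bases from 250 before to 50 after the start, GGGCGG was present on either strand in 7 of the 8 members whose promoter was listed, all but Me3. It was present in 35.9% of all 27025 listed promoters and in 63.9% of those of tested genes. The antioxidant response element TGACNNNGC, which NRF2 binds, was in 0 of 8, in 12.5% of all promoters and in 14.9% of those of tested genes. The core GCGCANGCG of nuclear respiratory factor 1 was in 0 of 8, in 6.47% of all promoters and in 14.1% of those of tested genes. The promoter of Nnt was not printed.

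Sod2, the mitochondrial manganese superoxide dismutase, a gene known to be induced by inflammatory signals, had the widest range of the members. Untreated Apoe-/- cells had 76.5, 114 and 95.0 RPKM, which was 56.5, 78.7 and 57.5 RPKM with oxLDL 10 and 29.3, 33.5 and 28.9 RPKM with oxLDL 60. Untreated DKO cells had 73.9, 75.9 and 104 RPKM, which was 48.0, 46.5 and 69.8 RPKM with oxLDL 10 and 29.2, 27.2 and 30.7 RPKM with oxLDL 60. The oxLDL 60 libraries lay below every untreated and oxLDL 10 library in both genotypes, and the replicate with Xist was the highest in all 6 groups.

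On the log2 scale Sod2 fell by 1.62 with oxLDL 60 in Apoe-/- cells (SE 0.17, limma adjusted p = 1.92e-06), 3.08-fold, and by 1.53 in DKO cells (SE 0.17, adjusted p = 4.3e-06), 2.88-fold. With oxLDL 10 its change was -0.56 in Apoe-/- (SE 0.17, adjusted p = 0.0624) and -0.64 in DKO cells (adjusted p = 0.0513), neither called, with all 3 replicates lower in each genotype. With a block for the animal, which pairs libraries of the same replicate number within a genotype, both oxLDL 10 changes were called (adjusted p = 0.000354 and 0.000144). The same held without the libraries with Xist (adjusted p = 0.00206 and 0.000881). Over 15 alternatives the adjusted p of the oxLDL 10 change ran from 0.000354 to 0.221 in Apoe-/- and from 0.000144 to 0.291 in DKO cells.

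Prdx5, a peroxiredoxin found in mitochondria, peroxisomes and cytosol, was the most abundant member. Untreated Apoe-/- cells had 171, 245 and 204 RPKM, and 142, 145 and 126 RPKM with oxLDL 60. Untreated DKO cells had 185, 196 and 213 RPKM, and 128, 126 and 128 RPKM with oxLDL 60. The untreated and oxLDL 60 libraries did not overlap in either genotype. With oxLDL 10 the values lay between them in DKO cells, at 150 to 174 RPKM, and overlapped the untreated libraries in Apoe-/- cells, at 146 to 203 RPKM.

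Prdx5 fell by 0.57 with oxLDL 60 in Apoe-/- cells (SE 0.12, limma adjusted p = 0.00152) and by 0.64 in DKO cells (SE 0.12, adjusted p = 0.000717) on the log2 scale, 1.49-fold and 1.56-fold. In Apoe-/- cells the fall was under 1.4-fold without untreated replicate 2, which held the highest value (-0.44, adjusted p = 0.0106), and without the libraries with Xist (-0.48, adjusted p = 0.00368), which ended the call. With oxLDL 10 the change was -0.23 (adjusted p = 0.275) in Apoe-/- and -0.32 (adjusted p = 0.194) in DKO cells.

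With oxLDL 60, 2 of 8 tested members were thus called lower and 0 higher in each genotype. In Apoe-/- cells 6.78% of all genes tested were called lower and 7.13% higher, and in DKO cells 7.31% and 4.87%. With oxLDL 10 none of the 8 was called in limma without a block for the animal. An unadjusted limma p under 0.05 was held by 5 in Apoe-/- and 2 in DKO cells, beside 2871 and 1692 of 12838 genes tested. At that dose 2.04% of all genes were called lower and 0.748% higher in Apoe-/- cells and 1.69% and 0.569% in DKO cells. With the block for the animal Sod2 was called in both genotypes, beside 528 genes called in Apoe-/- and 449 in DKO cells. The median change of the members with oxLDL 60 was 0.12 in Apoe-/- and -0.09 in DKO cells, beside medians of 0.06 and -0.06 over all genes.

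For Prdx3 and the thioredoxin chain no change was called. In Apoe-/- cells Prdx3, the peroxidase of the matrix, went from 31.7, 32.7 and 36.7 RPKM untreated to 39.2, 37.6 and 40.2 RPKM with oxLDL 60. The log2 change was 0.21, or 1.16-fold (SE 0.06, limma adjusted p = 0.00955), so it passed the adjusted p but not the fold limit and was not called. Txnrd2, which reduces Txn2 with NADPH, went from 7.26, 7.75 and 8.02 RPKM to 8.27, 9.22 and 9.87 RPKM, a change of 0.24 (SE 0.07, adjusted p = 0.0124) that was also under the fold limit. For both, the adjusted p was above 0.05 without the libraries with Xist (0.0626 for Prdx3 and 0.105 for Txnrd2) and when only the groups compared were fitted (0.0776 and 0.0811). Over 15 alternatives the limma adjusted p ran from 0.00111 to 0.0776 for Prdx3 and from 0.00374 to 0.105 for Txnrd2. Both stayed higher with oxLDL 60 and uncalled in each.

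In DKO cells none of these 3 genes passed the test in either direction. Prdx3 had 38.6, 39.0 and 38.1 RPKM untreated and 35.9, 37.9 and 35.5 RPKM with oxLDL 60, a change of -0.08 (SE 0.06, adjusted p = 0.342). Txnrd2 changed by 0.0045 (SE 0.07) and Txn2, the matrix thioredoxin, by -0.19 (SE 0.12, adjusted p = 0.297), where in Apoe-/- cells Txn2 changed by 0.27 (adjusted p = 0.114). Tested as the interaction of genotype and oxLDL 60, the difference was -0.29 for Prdx3 (SE 0.08, unadjusted p = 0.00229 in limma, adjusted p = 0.507), -0.46 for Txn2 (SE 0.17) and -0.24 for Txnrd2 (SE 0.10), both with an adjusted p of 0.507. No member was called, with 3 of 8 at an unadjusted p under 0.05, beside 1256 of the 12838 genes tested, of which 0.0156% were called. The median of all genes in the interaction was -0.11, and rescaling by the median ratio moved it by 0.12 and the Prdx3 value to -0.17.

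**Figure D3:**
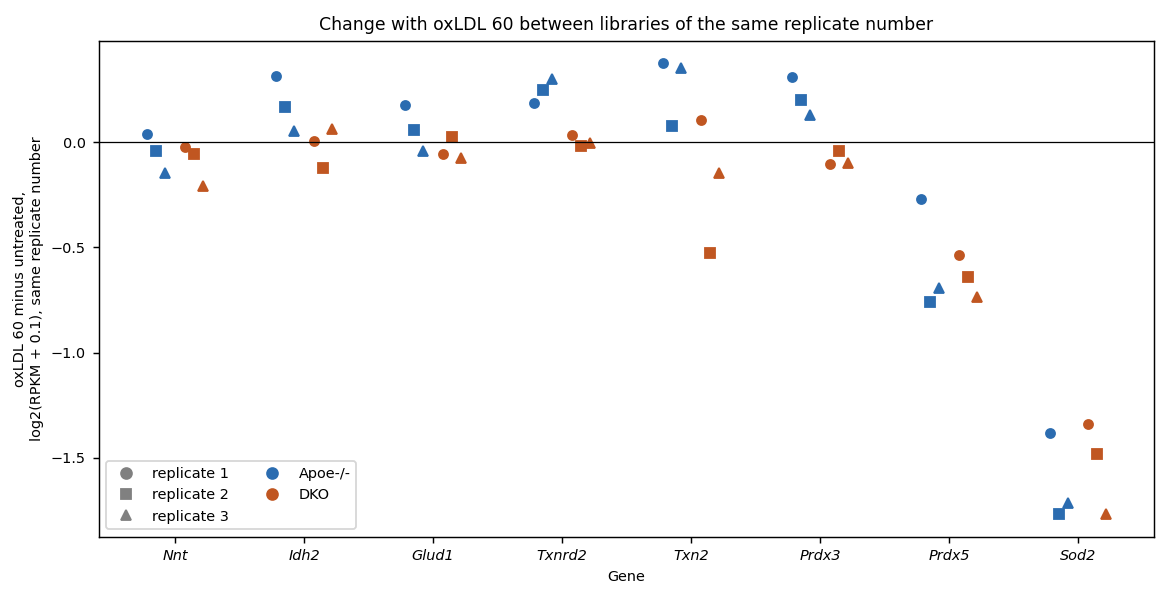
Change from untreated to oxLDL 60 between libraries of the same replicate number, in log2(RPKM + 0.1) (vertical axis), for each tested member (horizontal axis), coloured by genotype and shaped by replicate. All 6 replicates fall for Sod2 and Prdx5, while Prdx3 lies above 0 in all 3 Apoe-/- replicates, at 0.13 to 0.31, and below 0 in all 3 DKO replicates, at -0.10 to -0.04. The median change of all genes in limma was 0.06 in Apoe-/- and -0.06 in DKO cells.

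The remaining NADPH sources varied little. Idh2 ranged from 28.4 to 37.3 RPKM over the 18 libraries, and its change with oxLDL 60 was 0.18 in Apoe-/- (SE 0.07, adjusted p = 0.063) and -0.02 in DKO cells (adjusted p = 0.881). Glud1 ranged from 70.8 to 87.5 RPKM and changed by 0.06 (adjusted p = 0.405) and -0.04 (adjusted p = 0.682). Its coefficient of variation over all libraries was 5.38%, beside 6.82% for Idh2, 28.8% for Nnt and 46.5% for Sod2. Me3 was listed above 0 in 3 libraries only, with the value of 1 read in each, and a count of 0 here allows up to 3 reads, 0.0127 to 0.0173 RPKM. Limits of this kind cover counting error only, since PCR copies of a read are no independent molecules.

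By mean RPKM, which is scaled to gene length, the order was Prdx5 (167), Glud1 (80.2), Sod2 (59.7), Prdx3 (37.6), Idh2 (33.6), Txn2 (32.9), Nnt (9.05), Txnrd2 (8.26) and Me3. The ranges of Prdx5 and Glud1, of Txn2 and Nnt, and of Txnrd2 and Me3 did not overlap. Glud1 was above Sod2 in 14 of 18 libraries, Sod2 above Prdx3 in 12 and Idh2 above Txn2 in 12. Nnt was above Txnrd2 in 9 of 18 libraries, those of the DKO cells.

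The cytosolic relatives of these enzymes were set beside them as ratios within a library, which do not depend on its scaling. With oxLDL 60 the ratio of Prdx3 to its cytosolic relative Prdx1 lay between 0.0115 and 0.0129 in Apoe-/- cells, against 0.0315 to 0.0370 untreated. In DKO cells it lay between 0.0115 and 0.0128, against 0.0340 to 0.0411 untreated. That is a change of -1.56 on the log2 scale over both genotypes (two-sided exact permutation test within genotypes, p = 0.005, the smallest that 400 arrangements allow, adjusted p = 0.00833 over 5 pairs). Sod2 over Sod1, the cytosolic copper and zinc enzyme, changed by -1.85, with the same exact permutation p. Txnrd2 over the cytosolic reductase Txnrd1 lay between 0.0270 and 0.0353 in Apoe-/- cells, against 0.0570 to 0.0669 untreated. In DKO cells it lay between 0.0251 and 0.0309, against 0.0527 to 0.0648 untreated, again with that p. Txn2 over cytosolic Txn1 changed by -0.32 (exact permutation p = 0.01, adjusted p = 0.0125). In Apoe-/- cells that ratio lay between 0.0922 and 0.111 with oxLDL 60, which overlapped the 0.110 to 0.120 of untreated cells. In DKO cells it lay between 0.0717 and 0.101, against 0.111 to 0.117 untreated. Idh2 over Idh1 changed by 0.08 (exact permutation p = 0.54). These arrangements treat the libraries as unpaired. Exchanging untreated and oxLDL 60 only within an animal allows 64 arrangements with a smallest p of 0.0312, and this exact sign-flip test gave an adjusted p of 0.0391 for each pair but Idh2 over Idh1 (adjusted p = 0.406). The Me3 pair was left out because Me3 was too low.

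The shift in the Prdx3 and Txnrd2 ratios came with a rise of the cytosolic member. Prdx1 rose by 1.75 in Apoe-/- cells (SE 0.10, limma adjusted p = 2.12e-09), from 965 to 3238 RPKM, and 2.83-fold in DKO cells (adjusted p = 1.37e-08), from 1066 to 3013 RPKM. Txnrd1 rose by 1.18 (adjusted p = 2.48e-07) and 1.07 (adjusted p = 8.67e-07). The Sod1 change was 0.43 in Apoe-/- cells (limma adjusted p = 7.38e-05), under the fold limit and so not called, and 0.13 in DKO cells (adjusted p = 0.175). That of Idh1 was -0.03 and 0.04.

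**Figure D4:**
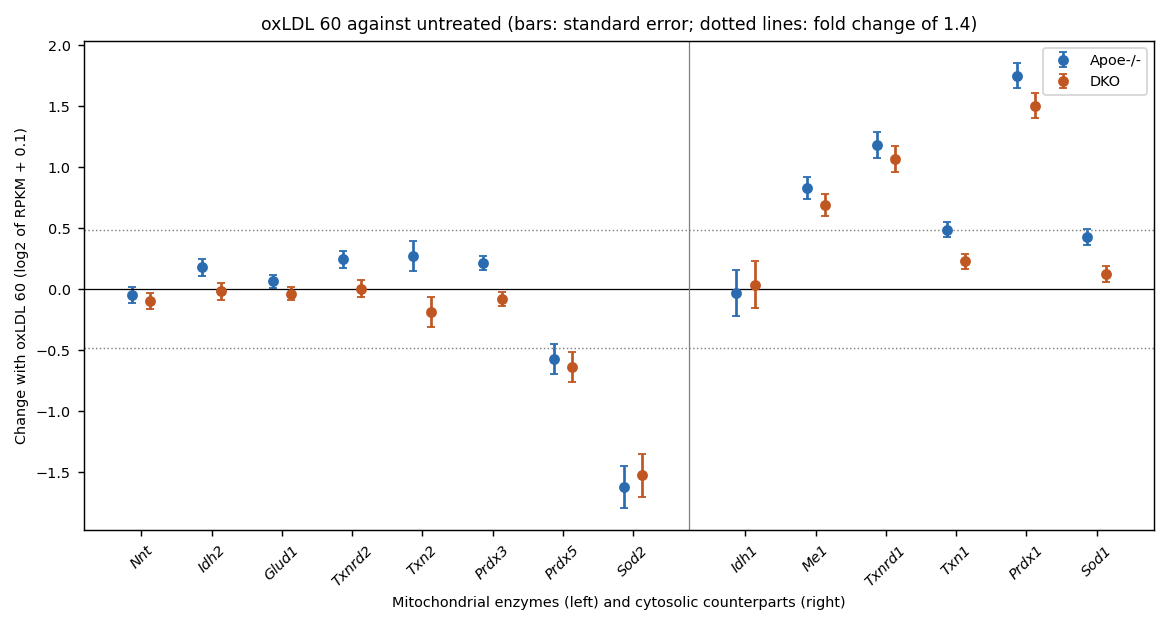
Change with oxLDL 60 against untreated cells on the log2(RPKM + 0.1) scale (vertical axis) for the 8 tested mitochondrial members and 6 cytosolic counterparts (horizontal axis), by genotype, with bars for the SE and dotted lines at a fold change of 1.4. Prdx5 lies at -0.57 and -0.64 and Sod2 at -1.62 and -1.53, and the other mitochondrial enzymes lie inside the dotted lines, between -0.19 and 0.27. Txnrd1 lies at 1.18 and 1.07 and Prdx1 above it in both genotypes.

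The list of 12 cytosolic counterparts in NADPH and peroxide metabolism also holds Cat, the peroxisomal catalase, which was called higher with oxLDL 60 in both genotypes. Of the 12, 8 were called higher and 0 lower with oxLDL 60 in Apoe-/- cells, and 7 and 0 in DKO cells. Of all genes tested, 7.13% and 4.87% were called higher. Srxn1, which repairs over-oxidized peroxiredoxins, rose by 2.52 in Apoe-/- (SE 0.11, limma adjusted p = 7.43e-11) and 2.31 in DKO cells (adjusted p = 2.62e-10). Prdx6 rose by 1.65 and 1.25. The median of the list was 0.76 in Apoe-/- and 0.62 in DKO cells, beside 0.06 and -0.06 over all genes. The gene called in Apoe-/- cells alone was Txn1, at 0.49 against 0.23 in DKO cells, and its fold change was at the limit of 1.4. With oxLDL 10, Srxn1, Prdx6, Prdx1 and Txnrd1 were called higher in each genotype, beside 0.748% of all genes tested in Apoe-/- and 0.569% in DKO cells.

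Of 25 other genes of mitochondrial redox metabolism, 5 were called higher and 0 lower with oxLDL 60 in Apoe-/- cells, and 3 and 0 in DKO cells, beside 7.13% and 4.87% of all genes tested called higher. Gsr, glutathione reductase, which serves cytosol and mitochondria from the same gene, rose by 1.75 in Apoe-/- (SE 0.09, limma adjusted p = 6.62e-10), from 32.3 to 109 RPKM, and by 1.55 in DKO cells (adjusted p = 3.24e-09). Mgst1, a membrane-bound glutathione transferase, rose by 1.01 and 0.92, and Mthfd2, a mitochondrial folate enzyme, by 1.00 and 0.68. Sirt3 and Nadk2 were called in Apoe-/- cells alone, and neither was called in the interaction of genotype and oxLDL 60. With oxLDL 10 Gsr was the single gene called, at 0.68 in each genotype, beside 0.748% and 0.569% of all genes tested that were called higher.

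The mitochondrial content list of 18 genes, 17 of them tested, holds import, chaperone, respiratory chain and mitochondrial DNA genes such as Tomm20, Hspd1 and Tfam. None was called in any of the 8 comparisons in limma, beside 0.0156% to 13.9% of all genes tested. At most 5 in a comparison had an unadjusted p under 0.05, beside 1011 to 5157 of all genes. The median change of the list with oxLDL 60 was 0.08 in Apoe-/- and -0.08 in DKO cells, close to the medians of all genes. The mean of Tomm20 went from 23.7 to 33.1 RPKM with oxLDL 60 in Apoe-/- cells, without overlap. In DKO cells it went from 27.6 to 33.2 RPKM, and neither change was called. The Tomm20 change in Apoe-/- cells lay just under the fold limit of 1.4. None of the genes of these 3 lists was called between the genotypes. At an unadjusted p under 0.05, 7 of 25, 3 of 12 and 5 of 17 passed there in untreated cells for the mitochondrial redox, cytosolic and content lists, beside 2225 of the 12838 genes tested.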

How the data were processed

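RNA was measured in 18 libraries of mouse BMDM, 6 groups with 3 replicates each, and groups and replicate numbers came from the sample labels. The members and lists were chosen with earlier results of these data known. The authors aligned reads to mm10 with STAR, per the submitters' processing notes, and deposited 1 table of RPKM for 18668 symbols, of which 24 had been turned into dates by spreadsheet software. RPKM are relative to the library total, so abundant RNAs lower all other values. Which library was run on which of the platforms and read lengths listed is not clear.

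Relative depth was taken from the steps between low values. Of 11012 low values, 98.8% were whole multiples of a step to within 0.05 (10% by chance), and gene lengths from GENCODE M21 set the absolute scale. The most common absolute depth was that of 311 of 1599 genes, so reads given for a gene are estimates. The ratio of deepest to shallowest library was 1.36.

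The 12838 genes that reached 0.1 RPKM in 3 or more libraries were fitted as log2(RPKM + 0.1), a scale that understates changes of low genes, with 1 mean for each group in limma 3.58.1 (R 4.3.3, eBayes with a trend). The design follows the study's limits, while the authors' own test needs counts. P-values were adjusted by Benjamini-Hochberg over all genes tested, and genes were called at an adjusted p under 0.05 and a fold change of at least 1.4. The comparisons were each oxLDL amount against untreated cells, DKO against Apoe-/- cells at each treatment, and the interaction with oxLDL 60. Ratios of mitochondrial to cytosolic partners were tested by exact permutation within genotypes. The script was tested on simulated data. Python 3.11.15 with pandas 2.3.3, scipy 1.17.1 and matplotlib 3.10.9 served for the rest.

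Libraries with the same replicate number in a genotype deviated together from their group means (18 pairs, r from 0.18 to 0.69, median 0.41), so the number was taken to mark the animal there. The median for other numbers was -0.35, which is tied to the first by the removal of group means and adds no separate support. For equal numbers across genotypes the median was -0.17, and no pairing was assumed. Named genes were the members, the cytosolic partners, up to 3 called genes per list and direction, the 5 genes most like Nnt by each measure and its nearest neighbours on either side, of which not all are reported here. Sirt3, Nadk2 and Txn1 calls and the list examples Tomm20, Hspd1 and Tfam were added after values were seen. Alternatives were the pseudocount, the filter, rescaling, a term for or removal of libraries with Xist, replicate blocks, fits of fewer groups, no fold limit and leaving out each library.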

Additional observations from a re-analysis of the deposited data

Results flagged for a closer look

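Prdx3 was picked out because every Apoe-/- replicate was higher with oxLDL 60 than untreated, by 0.31, 0.20 and 0.13 on the log2 scale, and every DKO replicate was lower, by -0.10, -0.04 and -0.10. The medians of all genes went the same way, 0.06 in Apoe-/- and -0.06 in DKO cells, and -0.11 in the interaction. The share of all genes with this pattern of replicates is not given here. The interaction of genotype and oxLDL 60 for Prdx3 was -0.29 (SE 0.08, limma adjusted p = 0.507), so the difference did not pass the test after adjustment. Over 21 alternatives the Prdx3 interaction lay between -0.36 and -0.17, with an adjusted p from 0.187 to 0.999.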

How the results depend on the processing

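The 61 tested changes of members gave 963 values under the alternatives. Of these, 924 kept direction and side of the threshold, 2 lost the call (Prdx5 with oxLDL 60 in Apoe-/- cells), 10 gained one (Sod2 with oxLDL 10) and 27 changed sign. The block for animal changed no other call of a member. The Nnt difference between genotypes stayed between 0.72 and 0.88 untreated, 0.74 and 0.85 with oxLDL 10 and 0.70 and 0.83 with oxLDL 60, and its largest move was to 0.72 under rescaling.

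Changes near 0 turned sign, and no cause was tested. Under rescaling by the median ratio these were Nnt with oxLDL 10 in Apoe-/- (-0.037), Idh2 (0.046) and Glud1 (0.028) with oxLDL 60 in DKO, Glud1 (-0.045) and Txnrd2 (-0.058) between untreated genotypes, Glud1 between genotypes with oxLDL 10 (-0.022), and the interaction for Nnt (0.079), Glud1 (0.025) and Prdx5 (0.063). Without the libraries with Xist they were Prdx5 between untreated genotypes (0.029) and the interaction for Nnt (0.013). Leaving out 1 library at a time gave ranges across 0 for Nnt with oxLDL 10 in Apoe-/- (-0.042 to 0.086) and DKO (-0.012 to 0.054), Nnt with oxLDL 60 in Apoe-/- (-0.12 to 0.010), Idh2 (-0.053 to 0.026) and Txnrd2 (-0.021 to 0.039) with oxLDL 60 in DKO, Prdx5 between untreated genotypes (-0.18 to 0.084), Idh2 (-0.011 to 0.12) and Txnrd2 (-0.053 to 0.020) between genotypes with oxLDL 10, the interaction for Nnt (-0.11 to 0.021), Prdx5 (-0.20 to 0.064) and Sod2 (-0.047 to 0.25), and Idh2 over Idh1 (-0.00072 to 0.15).

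Counts of called genes moved more. Between untreated genotypes 27 became 17 without the filter, 172 with a term for Xist, 308 without the libraries with Xist, 82 with a replicate block by number, 13 with only the groups compared, 51 without the fold limit, and 12 to 75 without 1 library, the highest without DKO replicate 3. With oxLDL 10, 11 became 75 with the Xist term, 110 without those libraries, 23 with the block and 4 with only the groups compared, and with oxLDL 60, 16 became 49, 74 and, with only the groups compared, 3, and 8 to 19 without 1 library. For the interaction, 2 became 1 with a pseudocount of 1, 0 with a pseudocount of 0.01, a filter of 1 RPKM or only the groups compared, 5 with the animal block, and 0 to 2 without 1 library. For oxLDL 10 in DKO cells 290 became 449 with the animal block, 510 without the fold limit and 185 to 361 without 1 library. Without the fold limit the others were 904 for oxLDL 10 and 3873 for oxLDL 60 in Apoe-/- cells, and 3319 for oxLDL 60 in DKO cells.

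The ratio tests lost their adjusted p without the libraries with Xist, where too few arrangements were left to pass. Of the other values, Txn1 and Nadk2 with oxLDL 60 in Apoe-/- cells, both near the fold limit, lost their call in 5 of 15 alternatives each. Depth limits Me3, with at most 1 read.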
